A study of Mus musculus with 24 samples.

Results

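The comparison described here is between interscapular brown adipose tissue of Control mice one day after a short cold exposure and the same tissue of Control mice that never left 22C. Control mice were male C57BL/6J animals of 10 to 12 weeks that carried floxed Hdac3 alleles without Cre. One group was housed at 22C throughout, and the other spent 24 h at 15C and then 24 h back at 22C. Each group has 4 libraries, so 8 of the 24 libraries of the series enter, and all tissue was taken at the same clock hour, ZT10. Control mice at 7 d of recovery (4 libraries) and mice with the same floxed alleles plus Cre under the Ucp1 promoter, which removes Hdac3 from brown adipocytes (KO, 4 libraries at 22C and 4 at 24 h of recovery), are used only to set values side by side. Every gene of the comparison was taken, which gives the 12830 genes that the authors' deposited table of the comparison lists, of 13162 genes in the deposited tables read here.

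Brown fat burns fuel to make heat when sympathetic nerves release noradrenaline onto brown adipocytes. Cold also makes the fat pad grow new vessels and new adipocytes, remodel its matrix and take in macrophages. Return from cold lowers the nerve signal while proteins, organelles and cells made during cold are still there. The metabolic genes of brown fat are the usual readout of this cycle. The account below is about other gene classes: chromatin, cell division, protein handling, immune cells, matrix, signalling, transport and non-coding RNA.

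The deposited table gives, per gene, the authors' log2 fold change (24 h recovery over 22C), their p-value and adjusted p-value from edgeR, the length of the gene and 2 group means as RPKM, which divides reads by gene length and by the library's total. It holds no value per library, so each level below is the authors' group mean and no spread between libraries can be printed. Where an error is given after ±, it is an approximate standard error on the log2 scale, rebuilt from the deposited fold change and p. A gene is called higher or lower at an adjusted p under 0.05, and every gene value, fold and adjusted p in what follows is the authors' deposited one. Whether the libraries of a group are from separate mice is not said in the labels, and p-values then cover only the spread of these libraries, which may be technical in part. Library totals, worked out from the step size of low deposited means, ran from 5349625 to 8287545 reads at 22C and from 7513600 to 9805171 at 24 h. At their mean, a gene of 1 kb at 1 RPKM is backed by about 8.01 reads per library, so levels under 1 RPKM rest on few reads. Hdac3 stood at 26.1 RPKM at 22C and 27.1 RPKM at 24 h (adjusted p = 0.6), and both groups carry the gene intact. Ucp1, the uncoupling protein that defines brown adipocytes, was 3.16-fold higher at 24 h (1607 RPKM at 22C and 4966 RPKM at 24 h, log2 fold change 1.66 ± 0.37, adjusted p = 0.00014). Of 16 brown adipocyte markers, all listed, 5 were called higher and 1 lower. Of 18 general adipocyte markers, 3 were higher and 7 (38.9%) lower, with a median log2 fold change of -0.27, and their summed mean was 14667 RPKM at 22C and 15511 RPKM at 24 h.

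Of the 12830 genes listed, 1682 (13.1%) were called higher and 1113 (8.67%) lower in the deposited table, 21.8% together. The median log2 fold change over all genes was 0.013. These shares and this median are the background against which each class is read. Rises were called more often among abundant genes. With all genes split by mean level into 4 bins of like size, 25.8% of the top bin (13.9 RPKM and more) were higher. In the other bins that share lay between 6.92% and 11.5%. Class shares were not recomputed by level, so this limit holds for classes of abundant or of scarce transcripts. At least 2-fold changes were fewer, with 484 genes called higher and 217 called lower. By the authors' own status, which asks for a change of at least 1.5-fold and an adjusted p under 0.01, 830 genes (6.47%) were up and 457 (3.56%) down. Tissue was bulk, so a change in a transcript's level and a change in the number of cells that carry it cannot be told apart.

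Among called genes with an established name whose average log2 CPM was 1 or more in the deposited table, the 15 largest rises include secreted proteins and lipid handling genes, and the 15 largest falls include an imprinted gene, leptin and a gene induced by nerve stimulation. Bmp8b, a bone morphogenetic protein made by brown adipocytes, was listed at 0 at 22C and stood at 2.10 RPKM at 24 h (adjusted p = 7e-15), so no fold is given. Serpina12, which encodes the adipokine vaspin, stood at 0.0127 RPKM at 22C and 2.30 RPKM at 24 h (log2 fold change 7.38 ± 1.82, adjusted p = 0.00077). Spp1, which encodes osteopontin of activated macrophages, stood at 0.0567 RPKM at 22C and 3.95 RPKM at 24 h (log2 fold change 5.82 ± 0.92, adjusted p = 2.6e-08). All 3 genes were close to or at 0 in the 22C group, so the size of a fold rests on few reads.

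Mfsd2a, a lysophospholipid transporter known to respond to cold in brown fat, reached a higher level (0.477 RPKM at 22C and 16.3 RPKM at 24 h, log2 fold change 5.24 ± 0.95, adjusted p = 1.8e-06). Elovl3, the fatty acid elongase most tied to cold in this tissue, stood at 3.57 RPKM at 22C and 64.4 RPKM at 24 h, 17.9-fold higher. Itih4, Mup10 and Ptgds, which encode a plasma protease inhibitor, a urinary protein and a prostaglandin D synthase that also binds small lipids, were 18.9-fold, 14.5-fold and 12.3-fold higher. Mup10 has near-identical copies, so its reads are uncertain. Arhgef19, a guanine nucleotide exchange factor, went from 0.160 to 2.65 RPKM, and Gchfr, the feedback regulator of tetrahydrobiopterin synthesis, from 0.398 to 4.88 RPKM. Pla2g2e, a secreted phospholipase, and Adprhl1, an ADP-ribosylhydrolase family member, rose 11.6-fold and 12.4-fold. By p rather than size, the leading rises were Isyna1, the first enzyme of inositol synthesis (2.49 RPKM at 22C and 26.8 RPKM at 24 h, log2 fold change 3.50 ± 0.27, adjusted p = 3.4e-33), and Letm1, a cation exchanger of the inner mitochondrial membrane (36.5 RPKM at 22C and 139 RPKM at 24 h, log2 fold change 1.98 ± 0.19, adjusted p = 4.7e-22).

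Among the falls, Nnat, an imprinted gene for a small membrane proteolipid, went from 20.8 to 1.81 RPKM (log2 fold change -3.43 ± 0.49, adjusted p = 6.3e-10). Nr4a1, a nuclear receptor induced within minutes of adrenergic stimulation, went from 22.4 to 2.75 RPKM (log2 fold change -2.94 ± 0.65, adjusted p = 0.00012), and Lep, which encodes leptin, from 25.5 to 3.71 RPKM. Tusc3, a subunit of the oligosaccharyltransferase, fell from 54.7 to 11.4 RPKM (log2 fold change -2.19 ± 0.30, adjusted p = 7.7e-11), the highest level at 22C among the 15 named falls. Fam20c, the kinase of secreted proteins, fell 4.06-fold, and Gdf5, a BMP family ligand, 4.64-fold. Apcdd1, an inhibitor of Wnt signalling, fell 5.31-fold. Tmem45b, Ppara and Snhg11 had the smallest p among the falls, and Ppara, the nuclear receptor that drives fatty acid oxidation genes, went from 98.8 to 40.4 RPKM (log2 fold change -1.22 ± 0.15, adjusted p = 1.3e-13).

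**Figure D1:**
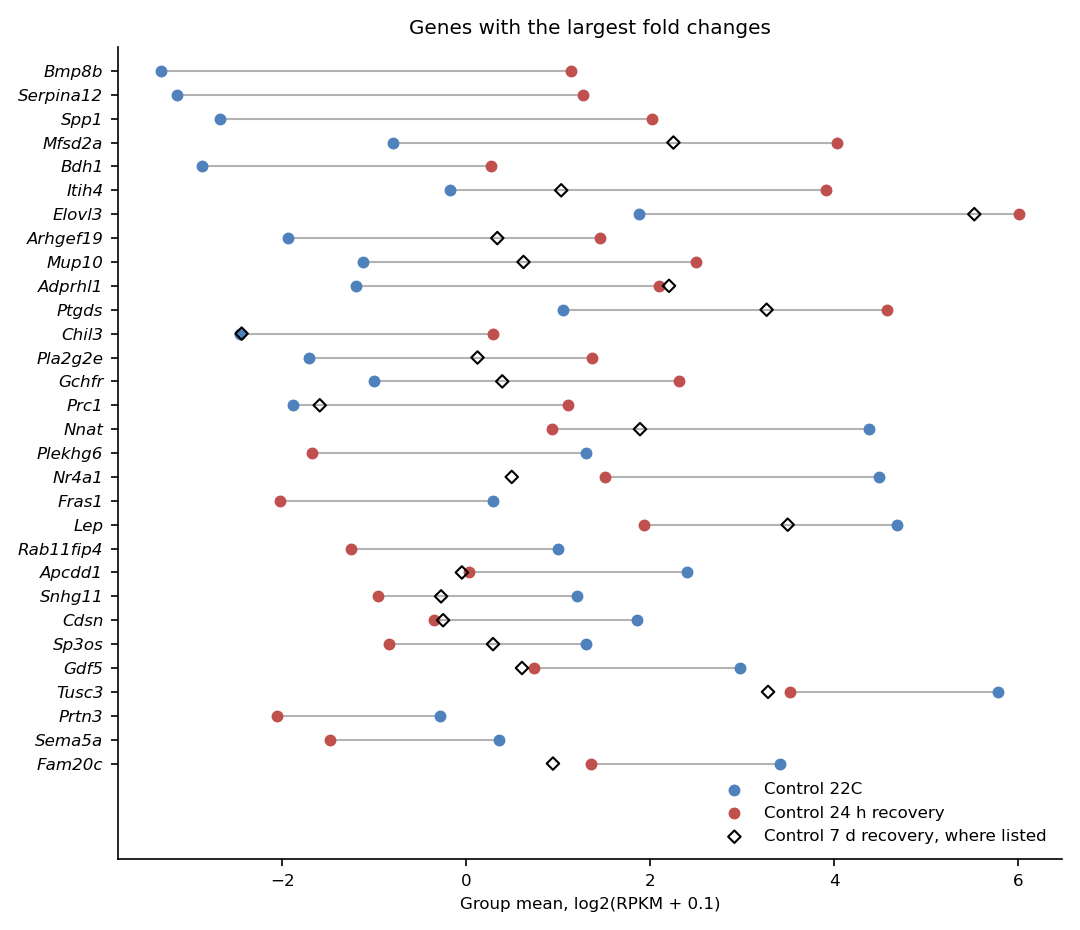
Group means on a log2(RPKM + 0.1) axis for the 15 genes called higher and the 15 called lower with the largest deposited fold changes where the average log2 CPM was 1 or more; blue points are Control 22C, red points Control 24 h recovery, open diamonds Control 7 d recovery where the gene was listed there. Bmp8b starts at 0 and reaches 2.10 RPKM, and Nnat falls from 20.8 to 1.81 RPKM.

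Chromatin genes changed in opposite directions by kind: the calls among genes for the histones themselves were mostly rises, and the calls among enzymes that modify histones were mostly falls. Histones package DNA, and the cluster genes make their protein mainly while DNA is copied, with mRNAs that lack a poly(A) tail and are therefore kept by the ribosomal depletion used here. Of 60 listed histone genes, 27 were called higher and 2 lower in the deposited table, with a median log2 fold change of 1.07. The called rises ran from 1.31-fold to 18.3-fold, leaving out Hist3h2ba, which was listed at 0 at 22C.

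By type, 11 of 14 cluster H2B genes, 5 of 10 H3 genes and 4 of 10 H2A genes were higher, and none of these was lower. Of the H4 genes, 1 of 11 was higher and 2 were lower. Hist1h2bc, an H2B gene, stood at 18.5 RPKM at 22C and 48.7 RPKM at 24 h (log2 fold change 1.45 ± 0.17, adjusted p = 8.3e-14). Hist1h1b and Hist1h1a, which encode linker histones that bind between nucleosomes, stood at 2.50 and 2.81 RPKM at 22C and at 13.8 and 11.3 RPKM at 24 h. Hist1h2bm went from 0.966 to 8.69 RPKM and Hist1h3c from 0.555 to 5.38 RPKM. The H4 genes that fell were Hist1h4d and Hist1h4c: Hist1h4d went from 145 to 89.0 RPKM and Hist1h4c from 70.2 to 35.7 RPKM. Outside the clusters, 3 of 10 genes were higher, among them H2afz, the variant H2A.Z, which was chosen here after its values were seen (25.3 RPKM at 22C and 36.8 RPKM at 24 h). Histone genes of one type are near-identical, so how reads were split between them is uncertain, and 10 of the 60 entered the table only through the 24 h group, 8 of them called higher.

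Enzymes that add or remove histone methyl groups showed the reverse. Of 76, 18 were lower and 1 higher (median -0.18). In the Kmt2 family, which methylates histone H3 lysine 4 at promoters and enhancers, 4 of 5 members fell: Kmt2d went from 3.24 to 1.65 RPKM, Kmt2a from 2.91 to 1.60 RPKM and Kmt2e from 11.8 to 7.13 RPKM. Kdm5b, a demethylase of the same mark, fell 1.67-fold (log2 fold change -0.74 ± 0.13, adjusted p = 9e-07). Ezh1, the Polycomb methyltransferase of non-dividing cells, fell from 18.1 to 10.2 RPKM (log2 fold change -0.76 ± 0.15, adjusted p = 1.3e-05). The one rise was Setd8, the histone H4 lysine 20 methyltransferase needed in dividing cells (15.5 RPKM at 22C and 27.2 RPKM at 24 h, log2 fold change 0.88 ± 0.15, adjusted p = 1.5e-07).

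Among acetylation enzymes, corepressors and readers, 13 of 58 fell and 1 rose. The falls include Ep300, a coactivator that acetylates histones (1.57-fold), and Ncor1, a corepressor that holds HDAC3 (21.2 to 13.7 RPKM, 1.48-fold). Sirt1, an NAD-dependent deacetylase, fell 1.64-fold. Chromatin remodellers were mixed, with 4 of 50 higher and 5 lower. Chd3, a subunit of the NuRD repressor complex, rose from 5.02 to 14.6 RPKM (log2 fold change 1.59 ± 0.21, adjusted p = 1.5e-11), and Arid1a, a subunit of the BAF complex, fell from 3.60 to 2.20 RPKM.

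Zinc finger genes, a large group of sequence-specific DNA-binding proteins, had few rises. Of 353 listed, 4 (1.13%) were higher and 39 (11.0%) lower, with a median of -0.22. Their share of falls lies near the 8.67% of all genes, and their share of rises lies under the 13.1%. Zfp703, Zfp395 and Zfp783 fell 3.02-fold, 2.31-fold and 2.20-fold, and Zbtb7b, a factor known to promote the brown fat program, was one of the 4 rises (22.0 RPKM at 22C and 30.0 RPKM at 24 h).

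**Figure D2:**
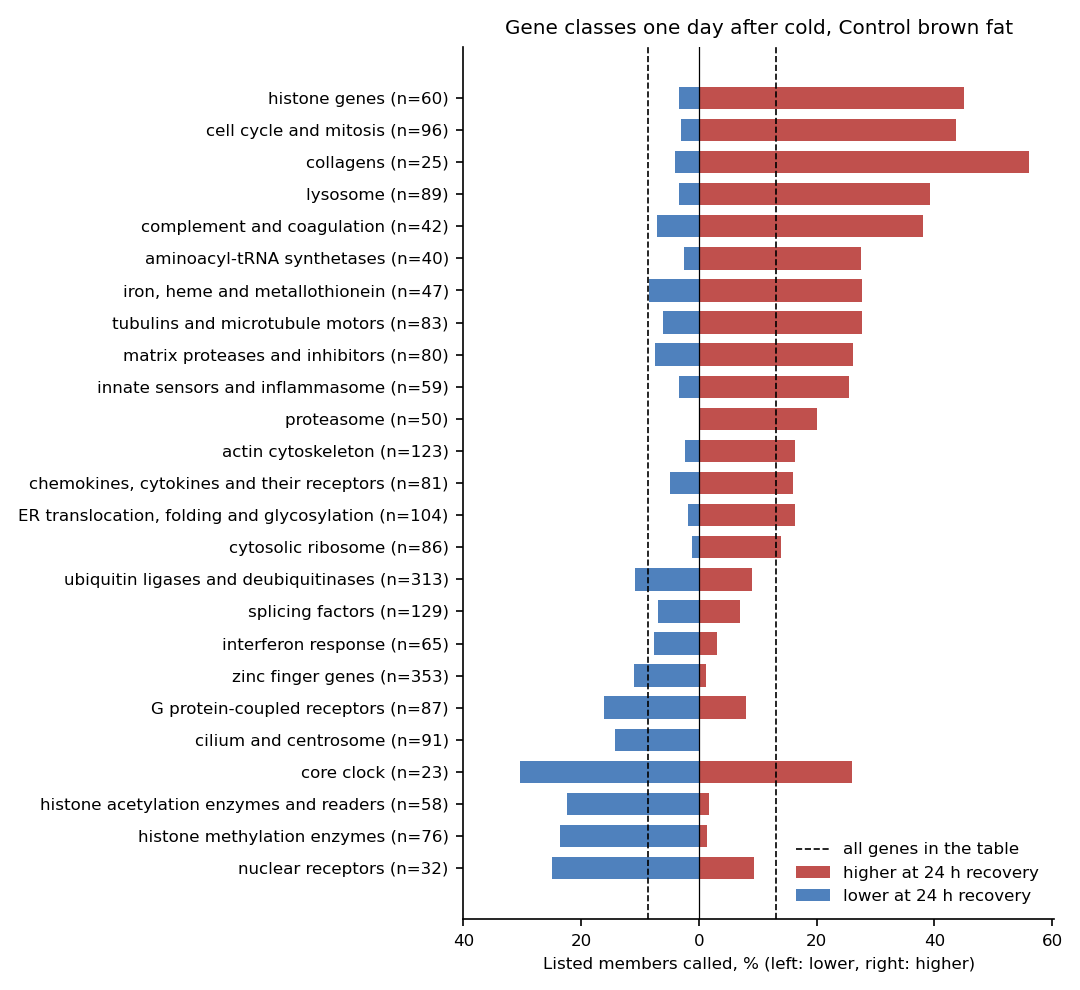
Share of the listed members of 25 gene classes called lower (blue, left) or higher (red, right) in Control at 24 h of recovery against 22C, at adjusted p under 0.05; dashed lines are the shares over all genes, 13.1% higher and 8.67% lower. Collagen, histone, cell cycle and lysosome bars reach 56%, 45%, 43.8% and 39.3% to the right, and the histone methylation and acetylation bars 23.7% and 22.4% to the left.

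Many genes of cell division were higher one day after the cold. Of 96 listed cell cycle and mitosis genes, 42 were called higher and 3 lower in the deposited table (median 0.74). Most stood at low levels: 33 of the 96 reached 0.5 RPKM, the listing limit, only in the 24 h group, and 28 of the rises are among these, genes that had to be higher at 24 h to be listed. Among the 58 members with a mean of at least 1 RPKM over both groups, 17 were higher and 3 lower, with a median of 0.14. The shares over all genes with such a mean were 13.8% higher and 9.26% lower.

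Mki67, the standard marker of cycling cells, stood at 0.523 RPKM at 22C and 2.86 RPKM at 24 h (log2 fold change 2.47 ± 0.42, adjusted p = 2.7e-07). Top2a, the topoisomerase that untangles chromosomes, stood at 0.593 RPKM at 22C and 4.14 RPKM at 24 h (log2 fold change 2.82 ± 0.51, adjusted p = 1.3e-06), and Ccna2, cyclin A2 of S phase and G2, at 0.395 RPKM at 22C and 2.49 RPKM at 24 h. Prc1, which bundles microtubules in the dividing cell's midzone, stood at 0.171 RPKM at 22C and 2.05 RPKM at 24 h (log2 fold change 3.51 ± 0.63, adjusted p = 1.4e-06). All 4 were under 1 RPKM at 22C. E2f2, a factor of the E2F family that drives S phase genes, went from 0.571 to 2.03 RPKM. Cdkn1a, which encodes the inhibitor p21 and acts against division, rose as well and at a higher level (4.72 RPKM at 22C and 14.4 RPKM at 24 h, log2 fold change 1.67 ± 0.30, adjusted p = 1.6e-06). Cdk6, a G1 kinase, was among the 3 falls (5.19 RPKM at 22C and 2.64 RPKM at 24 h).

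Of 99 DNA replication and repair genes, 15 were higher and 15 lower. Of the rises, 6 entered the table only through the 24 h group, and with a mean of 1 RPKM or more 10 genes were higher and 15 lower. Tk1, thymidine kinase of S phase, went from 0.156 to 2.07 RPKM and Mcm5, of the replicative helicase, from 0.863 to 2.19 RPKM. The falls include Rpa1, the single-strand binding protein, at a higher level (17.1 to 9.43 RPKM, 1.73-fold). Tubulin genes, which form microtubules, were higher for 9 of 12, with Tubb4b at 45.9 RPKM at 22C and 75.7 RPKM at 24 h. In the class of tubulins and microtubule motors, 23 of 83 were higher, of which 9 entered only through the 24 h group, and 14 were higher with a mean of 1 RPKM or more. Of 20 kinesins, 7 were higher and 4 lower: Kif20a, Kif22 and Kif11 of the mitotic spindle rose (0.288 to 1.26 RPKM, 4.33-fold, then 0.137 to 0.987 RPKM, 7.21-fold, and 0.286 to 1.39 RPKM, 4.75-fold), and the transport kinesins Kif3a and Kif3c fell 1.37-fold and 1.75-fold. Cilium and centrosome genes, which build the antenna-like cilium and the centrosome, had 0 rises and 13 falls among 91 (median -0.20). Among them, Cc2d2a of the ciliary transition zone stood at 4.74 RPKM at 22C and 2.44 RPKM at 24 h (log2 fold change -0.89 ± 0.19, adjusted p = 5.8e-05). Of these falls, 3 pass an adjusted p under 0.01, where 8.53% of all genes were higher and 4.81% lower.

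Promoters of division genes were searched for short sequences known from cell cycle genes. Promoters were taken from RefSeq (GRCm38.p6, 250 bases before to 50 after each start), which held one or more for 9451 of 11766 protein-coding listed genes (80.3%). The cell cycle homology region, searched as TTTGAA on both strands, was in a promoter of 27 of 35 called-higher members with a promoter (77.1%), of 17 of 45 members not called (37.8%) and of 14.1% of all genes with a promoter. The CCAAT box bound by NF-Y, searched as CCAAT on both strands, was in 62.9% of the called-higher members, 60% of those not called and 42.9% of all genes. Among histone genes, CCAAT was in 23 of 24 called-higher members and 20 of 28 not called. The E2F sites TTTCCCGC or TTTGGCGC were in 11.4% and 11.1% of cell cycle members called and not called, and in 3.41% of all genes. These are matches of letters in a window, given as a description, with no test. Of the 42 cell cycle rises, 28 were listed only through the 24 h group, and the shares were not worked out without them.

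The 150 bases before the start of 3 of these genes follow, 5′ to 3′ on the gene's strand, with CCAAT and TTTGAA on either strand in capitals. They lie at chr11:99024190-99024339 (minus strand, Top2a), chr7:80294326-80294475 (plus strand, the downstream of 2 Prc1 starts) and chr7:135716380-135716529 (minus strand, Mki67) of GRCm38.p6.
Top2a: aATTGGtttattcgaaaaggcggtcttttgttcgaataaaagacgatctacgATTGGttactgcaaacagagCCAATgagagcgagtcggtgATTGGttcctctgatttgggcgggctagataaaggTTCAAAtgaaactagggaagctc
Prc1: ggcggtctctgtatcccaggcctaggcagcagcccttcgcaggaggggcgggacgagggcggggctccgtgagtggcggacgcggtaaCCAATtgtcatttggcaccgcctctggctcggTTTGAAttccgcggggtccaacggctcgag
Mki67: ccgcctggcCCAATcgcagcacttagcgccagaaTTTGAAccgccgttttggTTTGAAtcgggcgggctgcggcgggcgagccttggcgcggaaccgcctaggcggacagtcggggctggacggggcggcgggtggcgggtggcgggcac
Top2a holds 4 CCAAT boxes and 1 TTTGAA in this window, Prc1 1 and 1, and Mki67 1 and 2. These windows were chosen because they hold both motifs. The same window before the upstream Prc1 start holds 1 CCAAT and 0 TTTGAA, and those before both Cdkn1a starts hold 0 of either.

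Many lysosomal genes were higher. Lysosomes digest material from endocytosis, phagocytosis and autophagy, and 35 of 89 lysosomal genes were higher and 3 lower in the deposited table (median 0.28). The rises covered the parts of the organelle: 7 of 11 cathepsins, 9 of 19 subunits and accessory genes of the proton pump that acidifies it, and 19 of 59 other genes.

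Lamp1, the main glycoprotein of the lysosomal membrane, stood at 175 RPKM at 22C and 331 RPKM at 24 h (log2 fold change 0.97 ± 0.12, adjusted p = 1.8e-13). Ctsd, the aspartic protease cathepsin D, stood at 466 RPKM at 22C and 841 RPKM at 24 h (log2 fold change 0.92 ± 0.12, adjusted p = 2.8e-11), and Ctsz, a carboxypeptidase, at 90.1 RPKM at 22C and 208 RPKM at 24 h. These are abundant transcripts, and their rises were 1.96-fold, 1.89-fold and 2.41-fold. Scarb2, which carries glucocerebrosidase to the lysosome, went from 54.3 to 86.6 RPKM, and Lgmn, the asparaginyl protease legumain, from 23.3 to 50.4 RPKM. Gusb, beta-glucuronidase, rose 1.99-fold. Macrophages are rich in lysosomes, and macrophage markers moved in the same direction (values with the immune classes below). Their part in the lysosomal rise was not tested.

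The palindrome CACGTG, the core of the sites that the lysosomal regulators TFEB and TFE3 bind and also of the clock's E-box, was in a promoter of 10 of 28 called-higher lysosomal genes (35.7%), 10 of 39 not called (25.6%) and 11.9% of all genes with a promoter. These shares too are a description, with no test. The motif is in capitals in the 150 bases before the start of Lamp1 (chr8:13159011-13159160, plus strand) and Ctsd (chr7:142387828-142387977, minus strand), the members with the smallest p, from RefSeq on GRCm38.p6. The same window holds none before the starts of Ctsz, Gusb and Scarb2. Lgmn has 2 starts, with 0 copies before the upstream one and 1, at -49, before the downstream one.
Lamp1: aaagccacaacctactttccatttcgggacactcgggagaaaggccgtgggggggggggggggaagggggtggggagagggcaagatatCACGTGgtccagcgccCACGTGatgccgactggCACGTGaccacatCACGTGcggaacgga
Ctsd: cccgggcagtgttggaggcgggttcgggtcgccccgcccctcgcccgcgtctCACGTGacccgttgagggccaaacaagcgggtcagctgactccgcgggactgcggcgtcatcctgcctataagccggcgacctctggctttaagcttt
Lamp1 holds 4 copies, at -61, -45, -28 and -15 from the start, and Ctsd 1, at -98.

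Proteasome genes, whose complex degrades ubiquitin-tagged proteins, had 10 rises (20%) and 0 falls among 50 (median 0.21), the largest rise being 1.68-fold. That share of rises is above the 13.1% of all genes but under the 25.8% of the bin of most abundant genes. The rises fell on both the core particle (4 of 17) and the regulatory particle (5 of 20). Psmb5, the chymotrypsin-like catalytic subunit, stood at 45.3 RPKM at 22C and 72.2 RPKM at 24 h (log2 fold change 0.73 ± 0.15, adjusted p = 4.2e-05), and Psmc4, an ATPase of the base, at 36.9 RPKM at 22C and 59.5 RPKM at 24 h (log2 fold change 0.74 ± 0.14, adjusted p = 1e-05). Ubiquitin ligases and deubiquitinases, the substrate-choosing side of the same system, were called in both directions, with 28 of 313 higher (8.95%) and 34 lower (10.9%). The rises there include Fbxw5 (18.5 to 29.2 RPKM, 1.65-fold) and the falls Fbxo21 (66.2 to 32.0 RPKM, 1.96-fold) and Trim16 (15.3 to 6.51 RPKM, 2.24-fold), which choose substrates for ubiquitin ligases or are ligases themselves.

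Genes for protein entry, folding and sugar addition in the endoplasmic reticulum had 17 rises (16.3%) and 2 falls (1.92%) among 104. Calr, the lectin chaperone calreticulin, stood at 91.8 RPKM at 22C and 135 RPKM at 24 h (log2 fold change 0.61 ± 0.15, adjusted p = 0.00077), Ppib, a prolyl isomerase that folds collagen, at 63.0 RPKM at 22C and 86.3 RPKM at 24 h, and Rpn1 and Rpn2, subunits of the oligosaccharyltransferase, rose 1.39-fold and 1.37-fold. Tusc3, of the same enzyme complex, is the 4.56-fold fall given above. Of vesicle coat, Rab and sorting genes, 29 of 262 were higher (11.1%) and 20 lower (7.63%), near the background (10 and 9 at an adjusted p under 0.01). Rab7, the GTPase of late endosomes, rose (24.0 RPKM at 22C and 33.7 RPKM at 24 h). Rab11fip4 and Rab17 of recycling endosomes fell 5.63-fold and 7.00-fold.

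Autophagy genes had 4 rises (8.16%) and 5 falls (10.2%) among 49, with a median of -0.045. The shares over all genes were 13.1% and 8.67%, so the class as a whole lay near the background. The 5 single genes that fell are receptors or mitophagy genes. Pink1 and Park2, the kinase and the ubiquitin ligase that mark damaged mitochondria for removal, stood at 115 RPKM at 22C and 69.9 RPKM at 24 h (log2 fold change -0.64 ± 0.16, adjusted p = 0.0014) and at 4.22 RPKM at 22C and 2.30 RPKM at 24 h (log2 fold change -0.81 ± 0.20, adjusted p = 0.00089). Fam134b, the receptor for autophagy of the endoplasmic reticulum, fell from 9.48 to 3.54 RPKM, and Optn and Calcoco1, cargo receptors, fell 1.36-fold and 1.59-fold. Of heat shock chaperones, 7 of 64 (10.9%) were higher and 4 (6.25%) lower, both shares under the background. The top 4 by p, Hspa9, Dnaja3, Grpel1 and Hspd1, all fold or import proteins in mitochondria, and Hspa9 stood at 346 RPKM at 22C and 633 RPKM at 24 h (log2 fold change 0.93 ± 0.12, adjusted p = 1.5e-11).

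The machinery that makes proteins changed in parts. Aminoacyl-tRNA synthetases, which load tRNAs, had 11 rises and 1 fall among 40 in the deposited table, and 8 of the rises are among the 18 genes whose symbol ends in 2, which names the mitochondrial form. Cars2, for cysteine in mitochondria, stood at 8.65 RPKM at 22C and 20.4 RPKM at 24 h (log2 fold change 1.30 ± 0.18, adjusted p = 8.2e-11), and Gars, which serves both compartments, at 42.6 RPKM at 22C and 68.5 RPKM at 24 h (log2 fold change 0.73 ± 0.17, adjusted p = 0.00034). Lars2, for leucine in mitochondria, was the exception (4.08 RPKM at 22C and 2.68 RPKM at 24 h). Cytosolic ribosomal protein genes had 12 rises among 86 (14.0%), a share close to the background of 13.1%, with Rpl22l1, a paralog of Rpl22, highest by fold among the top 6 by p (20.7 RPKM at 22C and 42.9 RPKM at 24 h). Their processed pseudogenes make these reads uncertain.

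Of translation factors, 11 of 71 were higher (15.5%) and 6 lower (8.45%), near the 13.1% and 8.67% of all genes (3 and 4 at an adjusted p under 0.01). The members that follow are single genes. The cap-binding protein Eif4e and its relative Eif4e3 rose 1.36-fold and 1.49-fold, and Eif5a, which helps ribosomes through hard stretches, rose 1.53-fold. The cap-complex helicase Eif4a2, its cofactor Eif4b and the poly(A)-binding protein Pabpc1 fell 1.59-fold, 1.32-fold and 1.76-fold. Pabpc1 went from 49.6 to 26.9 RPKM (log2 fold change -0.82 ± 0.16, adjusted p = 1.2e-05). Ribosome biogenesis genes (7 of 95 higher, 3 lower), RNA polymerase and Mediator subunits (6 of 93 higher, 5 lower), splicing factors (9 of 129 higher, 9 lower) and RNA helicases (4 of 51 higher, 6 lower) all had a share of rises under the background of 13.1%. Polr2a, the largest subunit of RNA polymerase II, fell from 7.51 to 4.28 RPKM (log2 fold change -0.74 ± 0.17, adjusted p = 0.0004), while Polr2l, a small subunit of the polymerases, rose from 3.58 to 6.44 RPKM. Srrm2, a large protein of the spliceosome, fell from 25.2 to 14.8 RPKM, and Lsm4, a small one, rose from 16.8 to 32.5 RPKM.

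Among immune genes, macrophage markers and receptors of phagocytes rose, few lymphocyte markers were listed, and few interferon response genes were called. Of 22 listed general macrophage markers, 13 were higher and 0 lower (6 higher at an adjusted p under 0.01), and their summed mean was 174 RPKM at 22C, 361 RPKM at 24 h and 196 RPKM at 7 d. Cd68, a lysosomal glycoprotein of macrophages, stood at 2.32 RPKM at 22C and 10.8 RPKM at 24 h (log2 fold change 2.25 ± 0.46, adjusted p = 3.4e-05), Lyz2, the lysozyme of myeloid cells, at 59.9 RPKM at 22C and 160.4 RPKM at 24 h (log2 fold change 1.45 ± 0.37, adjusted p = 0.0013), and Emr1, the F4/80 antigen, at 4.18 RPKM at 22C and 8.46 RPKM at 24 h. Of 25 markers of lipid-associated macrophages, several of them lysosomal or lipid genes that adipocytes also carry, 17 were higher (14 at an adjusted p under 0.01) and 1 was lower, and 5 of the rises entered the table only through the 24 h group. Only 5 of 30 T and NK cell markers and 5 of 23 B and plasma cell markers were listed, with 1 and 0 called. The T and NK marker called was Thy1, which fibroblasts also carry. Of 11 listed monocyte and neutrophil markers, 3 were higher.

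Pattern receptors and inflammasome genes had 15 rises and 2 falls among 59 (median 0.51). The leading rises were receptors of macrophages and related cells: Trem2, which senses lipids, stood at 0.163 RPKM at 22C and 2.72 RPKM at 24 h (log2 fold change 3.90 ± 0.93, adjusted p = 0.00047), Clec4d, a lectin receptor, at 0.0241 RPKM at 22C and 1.56 RPKM at 24 h, and Lilrb4, an inhibitory receptor, at 1.98 RPKM at 22C and 6.99 RPKM at 24 h. Of these, 6 of the 15 rises entered the table only through the 24 h group. With a mean of at least 1 RPKM over both groups, 9 of 45 were higher.

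Complement and coagulation genes had 16 rises and 3 falls among 42. C3, the central complement protein, stood at 105 RPKM at 22C and 179 RPKM at 24 h (log2 fold change 0.82 ± 0.16, adjusted p = 1.5e-05), and Cfp, properdin, which stabilises its convertase, at 4.44 RPKM at 22C and 11.9 RPKM at 24 h. Cfd, the adipocyte protease adipsin that starts the same pathway, went the other way (1846 RPKM at 22C and 1101 RPKM at 24 h, log2 fold change -0.68 ± 0.24, adjusted p = 0.029). Itgam and Itgb2, the subunits of complement receptor 3 on phagocytes, rose 2.49-fold and 2.70-fold. Among chemokines, cytokines and their receptors, 13 of 81 were higher and 4 lower. Ccl2 and Ccl7, which attract monocytes, stood at 1.18 and 0.766 RPKM at 22C and at 13.8 and 7.33 RPKM at 24 h, and Cxcl12, a retention signal made by stromal cells, at 10.5 RPKM at 22C and 17.9 RPKM at 24 h. The falls include Lifr, the receptor for leukaemia inhibitory factor (12.9 to 8.48 RPKM, 1.45-fold), and Il17re, a subunit of an interleukin 17 receptor (3.74 to 0.930 RPKM, 3.80-fold).

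Interferon response genes had 2 rises and 5 falls among 65, both shares under the background. The cytosolic RNA sensors Ddx58 and Ifih1, which encode RIG-I and MDA5, fell 1.55-fold and 1.47-fold, and Dhx58, their regulator LGP2, rose 2.16-fold. Antigen presentation genes had 4 rises and 0 falls among 44, with a median of -0.18. The rises were Ctss, Ifi30 and Calr, of protein digestion and folding, and H2-Q10, a secreted class I molecule with near-identical relatives (54.7 RPKM at 22C and 103 RPKM at 24 h). Macrophage markers moved with the innate, complement and chemokine classes, and their part in these counts was not tested.

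Fibrillar and basement membrane collagens were higher together. Of 25 collagen genes, 14 were higher and 1 lower in the deposited table (median 0.78), and the called rises lay between 1.66-fold and 2.50-fold. Col4a1 and Col4a2, the chains of basement membrane collagen, went from 77.3 to 151 RPKM and from 44.7 to 71.7 RPKM. Col1a1, Col1a2 and Col3a1, of fibrils, rose 2.50-fold, 2.38-fold and 2.21-fold, and Col3a1 stood at 99.7 RPKM at 22C and 213 RPKM at 24 h (log2 fold change 1.14 ± 0.27, adjusted p = 0.00047). Of 26 fibroblast and preadipocyte markers, 8 were higher, among them Col1a1, Col1a2, Col3a1 and Col15a1. The summed mean of all 26 was 1036 RPKM at 22C and 1129 RPKM at 24 h. Col3a1 is in that sum and rose by more RPKM than the sum did, so the other markers together were lower at 24 h. How far the number of fibroblasts takes part in the collagen rise was not tested.

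Loxl1, a lysyl oxidase that cross-links matrix fibres, stood at 2.44 RPKM at 22C and 10.4 RPKM at 24 h (log2 fold change 2.10 ± 0.29, adjusted p = 4.8e-11), and Eln, elastin, at 3.05 RPKM at 22C and 7.23 RPKM at 24 h. In all, 16 of 63 matrix glycoprotein and proteoglycan genes were higher and 6 lower, and the falls include Lamb2, a laminin chain (27.4 to 16.6 RPKM, 1.57-fold), and Prelp, a small leucine-rich proteoglycan (45.6 to 22.0 RPKM, 1.98-fold). Matrix proteases and their inhibitors had 21 rises, several of them lysosomal cathepsins counted above, and 6 falls among 80. Adam8, a metalloprotease of leukocytes, stood at 0.455 RPKM at 22C and 3.44 RPKM at 24 h, and Timp3 and Timp4, inhibitors of metalloproteases, fell from 60.4 to 33.6 and from 46.7 to 20.6 RPKM.

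Actin cytoskeleton genes had 20 rises and 3 falls among 123. Pfn1, profilin, which feeds actin monomers to growing filaments, stood at 50.5 RPKM at 22C and 74.3 RPKM at 24 h (log2 fold change 0.62 ± 0.13, adjusted p = 0.0001), and S100a4, Capg and Tmsb10, of motile cells, rose 3.93-fold, 3.31-fold and 2.37-fold. Adhesion genes were evenly split, with 11 of 87 higher (12.6%) and 10 lower (11.5%), near the shares over all genes. Sdc4, a heparan sulfate proteoglycan, stood at 32.9 RPKM at 22C and 66.5 RPKM at 24 h (log2 fold change 1.07 ± 0.23, adjusted p = 7.5e-05). Mcam, of vessel walls, fell from 32.6 to 18.3 RPKM. The clustered protocadherins, neuronal adhesion genes that share their last exons, fell as one block: 23 of 25 were lower, with log2 fold changes around a median of -0.48. Because their reads fall mostly on shared exons, these 25 entries are close to a single measurement, and 1 of them passes an adjusted p under 0.01.

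Guidance cues had 8 rises and 6 falls among 42, with Sema4a (2.25 to 4.59 RPKM, 2.15-fold) and Plxnb2 (2.86 to 4.90 RPKM, 1.77-fold), a semaphorin and a plexin receptor, higher and Sema5a (1.18 to 0.258 RPKM, 4.32-fold) and Nrp2 (1.44-fold), another semaphorin and a coreceptor, lower. Vascular endothelial markers were 6 of 29 higher, among them Emcn and Vwf (14.8 to 23.6 RPKM, 1.66-fold, and 3.37 to 4.89 RPKM, 1.52-fold), with a class median of -0.0012.

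Signalling classes held members called in either direction, as did the table as a whole. In the BMP and TGF-beta family, 6 of 41 were higher (14.6%) and 6 lower (14.6%) in the deposited table. The shares over all genes were 13.1% and 8.67%, so the members below are given as single genes. Among ligands, Bmp8b and Gdf10 (0.995 to 3.08 RPKM, 3.23-fold) rose, and Gdf5 (7.78 RPKM at 22C and 1.56 RPKM at 24 h) and Inhbb, the activin B chain (0.579 RPKM at 22C and 0.200 RPKM at 24 h), fell, as did their antagonist Fst, follistatin (1.70 to 0.623 RPKM, 2.54-fold). Of the intracellular mediators, Smad3 rose (4.28 to 7.83 RPKM, 1.91-fold), and the inhibitory Smad6 and the BMP mediator Smad5 fell 2.06-fold and 1.38-fold. The type II receptor Tgfbr2 went from 36.6 to 22.9 RPKM (log2 fold change -0.61 ± 0.15, adjusted p = 0.00093).

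Of Wnt, Notch and Hedgehog genes, 5 of 38 (13.2%) were lower and 1 was higher. Among the falls, the Notch ligand Dll4 went from 4.23 to 1.86 RPKM, the receptor Notch1 from 6.46 to 3.85 RPKM, and the target Hes1 from 10.9 to 4.89 RPKM (log2 fold change -1.11 ± 0.30, adjusted p = 0.0027). The Wnt receptors Fzd4 and Fzd8 fell 1.72-fold and 2.18-fold, and the secreted antagonist Sfrp4 was the rise (0.184 RPKM at 22C and 0.696 RPKM at 24 h). Growth factors had 8 rises and 7 falls among 48. Apln, apelin, which acts on endothelium, stood at 1.46 RPKM at 22C and 5.15 RPKM at 24 h (log2 fold change 1.86 ± 0.46, adjusted p = 0.00076), and its receptor Aplnr, an endothelial marker, rose 1.65-fold. Angpt1, the ligand that stabilises vessels, and Angptl4, an inhibitor of lipoprotein lipase, fell from 15.3 to 5.96 RPKM and from 258 to 66.2 RPKM. Btc, betacellulin of the EGF family, fell 3.38-fold (log2 fold change -1.76 ± 0.23, adjusted p = 6.9e-12).

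Of G protein-coupled receptors, 7 of 87 were higher and 14 lower (16.1%). The falls include receptors that couple to cAMP: Sctr, the secretin receptor, went from 7.40 to 2.47 RPKM (log2 fold change -1.52 ± 0.31, adjusted p = 2.9e-05), and Tshr, the thyrotropin receptor, from 1.27 to 0.533 RPKM. Adora1, the adenosine receptor that lowers cAMP in adipocytes, fell as well (22.2 RPKM at 22C and 11.0 RPKM at 24 h, log2 fold change -0.93 ± 0.17, adjusted p = 3.1e-06), as did Adra1d, an alpha1-adrenergic receptor (5.94 to 2.59 RPKM, 2.19-fold). Cnr1, the cannabinoid receptor, rose from 0.194 to 0.907 RPKM. Immediate early genes, which nerve stimulation induces quickly, had 3 falls and 1 rise among 28: Nr4a1 above, Jun (16.5 to 5.15 RPKM, 3.07-fold) and Klf2 (5.04 to 2.20 RPKM, 2.17-fold) fell, and Gem, a small GTPase, rose (0.881 RPKM at 22C and 2.09 RPKM at 24 h). Of feedback regulators, 7 of 82 were higher and 6 lower, with Tob2 and Tob1, antiproliferative proteins, down 2.28-fold and 1.59-fold and Socs2, an inhibitor of growth hormone signalling, up 2.09-fold.

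Nuclear receptors were lower for 8 of 32 (25%) and higher for 3. Beside Ppara and Nr4a1, the falls include the heme-binding clock repressors Nr1d1 and Nr1d2 (14.6 to 5.56 RPKM, 2.49-fold, and 32.2 to 20.9 RPKM, 1.48-fold), the estrogen-related receptor Esrrg (5.95 to 2.89 RPKM, 1.95-fold) and the thyroid hormone receptor Thra (24.7 to 17.7 RPKM, 1.33-fold). The rises were Esrra, the estrogen-related receptor of mitochondrial genes (45.3 to 57.6 RPKM, 1.32-fold), Nr1h3, the oxysterol receptor LXR alpha (28.5 to 40.8 RPKM, 1.49-fold), and Nr2f6 (10.4 to 12.7 RPKM, 1.28-fold). Homeobox genes (2 of 55 higher, 4 lower) and Klf, Fox, Sox and Ets factors (1 of 46 higher, 6 lower) had few calls. Spi1, the PU.1 factor of myeloid cells, was the rise of the latter class (0.728 RPKM at 22C and 2.28 RPKM at 24 h). Of bZIP factors, 3 of 35 rose and 4 fell: Cebpa, the adipocyte factor, went from 161 to 89.5 RPKM (log2 fold change -0.77 ± 0.16, adjusted p = 6.5e-05), Xbp1 of the unfolded protein response from 34.6 to 22.6 RPKM, and Atf5 of the mitochondrial stress response rose from 11.2 to 21.8 RPKM. At the fixed hour of collection, 6 of 23 clock genes were higher and 7 lower.

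Transport and redox genes changed in both directions. Of ion, metal and nucleoside transporters, 10 of 69 (14.5%) were higher and 12 (17.4%) lower in the deposited table. Of ion channels 11 of 71 (15.5%) were higher and 7 (9.86%) lower. Of amino acid transporters the counts were 5 of 27 (18.5%) and 2 (7.41%), and of ABC transporters 6 of 34 (17.6%) and 2 (5.88%). The shares over all genes were 13.1% and 8.67%, and the 4 class medians lay between -0.013 and 0.13. Abcd3, which carries fatty acids into peroxisomes, stood at 118 RPKM at 22C and 228 RPKM at 24 h (log2 fold change 1.00 ± 0.16, adjusted p = 3.3e-08). Slc6a8, the creatine transporter, fell from 9.31 to 3.63 RPKM (log2 fold change -1.28 ± 0.25, adjusted p = 6.8e-06), and Slc7a10, a transporter of small neutral amino acids in adipocytes, rose from 3.74 to 9.28 RPKM. Among channels, Ano1, a calcium-activated chloride channel, and Itpr2, the receptor that releases calcium from internal stores, fell 2.34-fold and 1.68-fold, and the nerve potassium channels Kcna1 and Kcna2 fell 2.02-fold and 3.01-fold.

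Iron and heme genes had 13 rises and 4 falls among 47. Hmox1, heme oxygenase, which breaks heme down, stood at 4.85 RPKM at 22C and 42.6 RPKM at 24 h (log2 fold change 3.11 ± 0.80, adjusted p = 0.0013), and the heme synthesis enzymes Alad, Uros and Urod rose 1.48-fold, 1.68-fold and 1.38-fold. Tfrc, the transferrin receptor that takes iron in, fell from 50.1 to 25.5 RPKM (log2 fold change -0.90 ± 0.35, adjusted p = 0.046), and Heph, a ferroxidase of iron export, from 6.66 to 1.99 RPKM. Of 11 erythroid markers, 0 were called higher and 1, Tfrc itself, lower, and their summed mean was 1741 RPKM at 22C and 1119 RPKM at 24 h. In the glutathione, thioredoxin and detoxification class, 33 of 125 were higher and 17 lower. The rises were led by protein repair and mitochondrial peroxide defence, with Txn2, mitochondrial thioredoxin, at 67.4 RPKM at 22C and 136 RPKM at 24 h (log2 fold change 1.09 ± 0.22, adjusted p = 2.1e-05), Sod2 at 132 RPKM at 22C and 214 RPKM at 24 h and Msrb1, a methionine sulfoxide reductase, at 33.5 RPKM at 22C and 67.4 RPKM at 24 h. The falls include enzymes that act on foreign compounds and steroids: Mgst3, Gstt1 and Sult1a1 fell 2.32-fold, 1.92-fold and 2.04-fold.

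Long non-coding genes had few rises. Of 333 genes that RefSeq types as long non-coding RNA, 14 were higher and 38 were lower, against 14.0% and 8.97% of 11766 protein-coding genes. Snhg11, a snoRNA host, went from 2.21 to 0.416 RPKM (log2 fold change -2.35 ± 0.28, adjusted p = 2.1e-14), and Airn, the imprinted antisense transcript of the Igf2r locus, from 4.12 to 1.41 RPKM. The library kit does not mark strand, so reads of an antisense gene and its partner cannot be told apart, and Igf2r itself, named here as that partner after its values were seen, the receptor that carries lysosomal enzymes, fell 1.39-fold. Of 38 imprinted genes, 5 were higher and 10 lower (26.3%). Nnat lies inside an intron of Blcap, which fell too (50.9 RPKM at 22C and 23.7 RPKM at 24 h, log2 fold change -1.03 ± 0.15, adjusted p = 2.1e-09), and the overlapping Snurf and Snrpn, which the table lists with identical values and which are 1 measurement, rose 1.65-fold.

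Of 484 listed microRNA genes and 110 snoRNA and scaRNA genes, 5 and 0 were higher and 7 and 4 lower, far under the background shares. Their gene models are short, with a median of 77.5 bases, so their RPKM rests on few reads. The libraries were not built for mature microRNAs, so these values are reads over the locus.

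Gene length moved with the result across all genes. With all genes split by length into 4 bins of like size, the median log2 fold change went from 0.16 for the shortest genes (up to 1617 bases) through 0.061 and -0.0049 to -0.095 for the longest (4268 bases and more). The share called higher fell from 17.8% to 7.33% and the share called lower rose from 3.89% to 15.3%. The same trend stood in KO mice, whose libraries are separate, with medians from 0.13 to -0.19. Across genes, Spearman's correlation between length and log2 fold change was -0.18 in Control and -0.17 in KO, given as a description since genes are not replicates.

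Several classes lie at the ends of this range, and their counts can be read within a bin of length. In the bin of longest genes, 13 of 41 histone methylation enzymes and 12 of 30 acetylation enzymes and readers were lower, with medians of -0.30 and -0.28 beside -0.095 for all genes of the bin. In both bins of shorter genes, none of 3 and 15 methylation enzymes or of 4 and 16 acetylation genes was called. Zinc finger genes of both middle bins had medians of -0.20 and -0.24 beside 0.061 and -0.0049. Collagens ran against the trend, with 12 of 20 in the bin of longest genes higher (median 0.84). Proteasome genes of the shortest bin had a median there of 0.21 beside 0.16, and lysosomal genes of that bin 0.43. The part that length has in the class counts was not tested further.

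**Figure D3:**
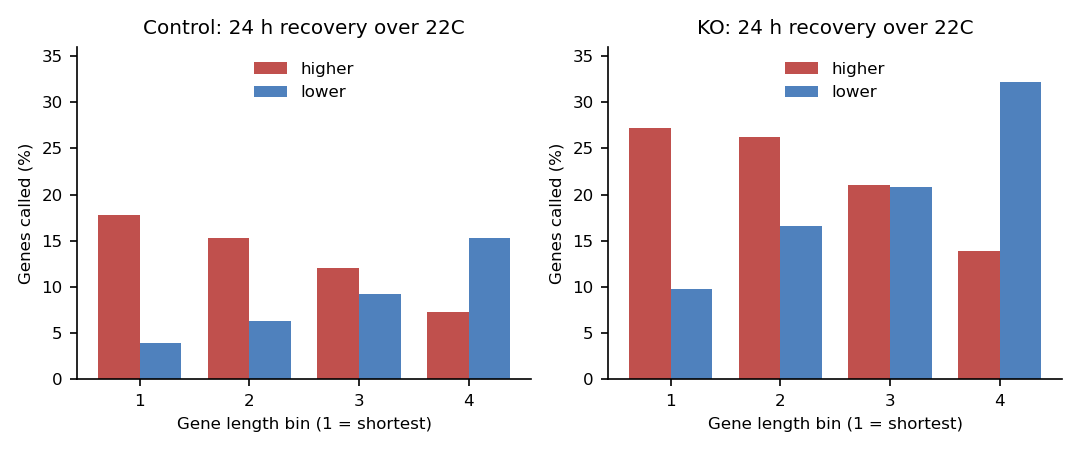
Share of genes called higher (red) and lower (blue) at adjusted p under 0.05, by bin of gene length, in Control (left) and KO (right) at 24 h of recovery over 22C. In Control the share higher falls from 17.8% to 7.33% and the share lower rises from 3.89% to 15.3%.

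Set beside KO mice, many of the Control changes were called in both genotypes, while none of the collagens and none of the general macrophage markers that rose in Control was called higher in KO. In the KO table, 22.1% of 12577 genes were called higher and 19.8% lower. The comparisons share no libraries. Of 1638 Control rises listed in both tables, 1057 were also KO rises, which is 64.5% of the Control list and 38.4% of the KO list, and 39 were KO falls. Of 1076 Control falls, 665 were also KO falls (61.8% and 27.4%), and 64 were KO rises. Spearman's correlation across the 12335 shared genes was 0.52.

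Lysosomal genes rose in both (35 in Control, 34 in KO, 21 shared), as did cell cycle genes (42, 29 and 17), proteasome genes (10, 24 and 8) and tRNA synthetases (11, 22 and 11). Histone methylation enzymes fell in both (18, 29 and 13). Of the 14 collagens that rose in Control, 0 rose in KO, where 5 other collagens rose and 4 of all listed there fell, and Col3a1 had a log2 fold change of 1.14 in Control and 0.15 in KO. Of the 13 general macrophage markers that rose in Control, 0 rose in KO. Of the 17 lipid-associated macrophage markers that rose in Control, 4 rose in KO: Ctsd, Ctsz, Lipa and Fabp5, of lysosomes and fatty acid binding, which adipocytes also express. For innate sensors 1 of 15, and for complement genes 1 of 16, were KO rises too. In these class counts a member not listed in KO, such as Spp1, counts as not risen there, unlike in the 64.5% above. KO lists 23 of the 25 lipid-associated macrophage markers, 21 of 22 general ones and 24 of 25 collagens. It lists 56 of 59 innate sensors, 41 of 42 complement genes and 85 of 96 cell cycle genes. Ccl2 had a log2 fold change of 3.50 in Control and -0.21 in KO, and C3 of 0.82 and -0.69. Of 28 immediate early genes, 24 fell in KO (median -2.19) and 3 in Control. Nr4a1 stood at 51.4 RPKM at 22C and 2.50 RPKM at 24 h in KO, beside 22.4 and 2.75 RPKM in Control. The 22C levels of the class were not compared between genotypes. Some single genes were called in opposite directions, such as Ppara (log2 fold change -1.22 in Control and 0.87 in KO), Tfrc (-0.90 and 2.64) and Esrrg (-0.97 and 2.03). The difference between the genotypes was not tested for any of these classes or genes.

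**Figure D4:**
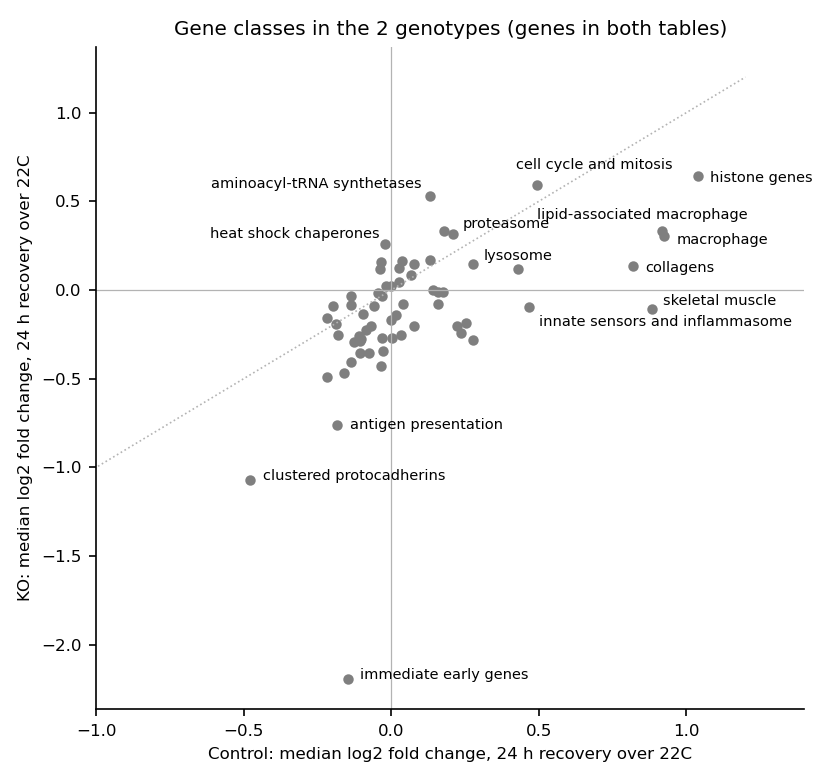
Median deposited log2 fold change of each gene class with 20 or more members in both tables, at 24 h of recovery over 22C, in Control (x) and KO (y); the dotted line marks equal medians. Histone genes have medians of 1.04 and 0.64, collagens and general macrophage markers have Control medians of 0.82 and 0.92 and KO medians of 0.14 and 0.30, and immediate early genes lie at -2.19 in KO.

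Control means after 7 d of recovery were set beside those at 24 h for the genes called at 24 h. Ratios of group means to 22C were centred on the median of all genes, since the 7 d means come from a table that was normalized on its own, and single levels at 7 d carry that limit. The 24 h and 7 d ratios share the 22C means and the members were chosen at 24 h, so no test was made. Over all called rises listed at 7 d, the median log2 ratio was 0.66 at 24 h and 0.41 at 7 d (1602 genes), and over all falls -0.63 and -0.42 (1073 genes).

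Macrophage markers called at 24 h had medians of 1.05 and 0.18, innate sensors 1.26 and 0.32, histone genes 2.07 and 0.33, and cell cycle genes 1.48 and 0.14. For the last, 22 of 42 were no longer listed at 7 d, where a gene needs 0.5 RPKM in one genotype. Proteasome genes had 0.47 and 0.45, vesicle genes 0.42 and 0.37, and endoplasmic reticulum genes 0.51 and 0.38. Psmb5 stood at 45.3, 72.2 and 58.4 RPKM at 22C, 24 h and 7 d. Collagens had 0.98 and 0.64. Of the falls, cilium genes had -0.58 and -0.48, the protocadherin block -0.49 and -0.59, and histone methylation enzymes -0.60 and -0.31. Tusc3 stood at 54.7, 11.4 and 9.62 RPKM, and Gdf5 at 7.78, 1.56 and 1.42 RPKM, so both were also below their 22C mean at 7 d. Skeletal muscle markers, which enter with the dissection, had a summed mean of 273, 413 and 1266 RPKM, with 0 of 32 called at 24 h although their median log2 fold change was 0.88.

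**Figure D5:**
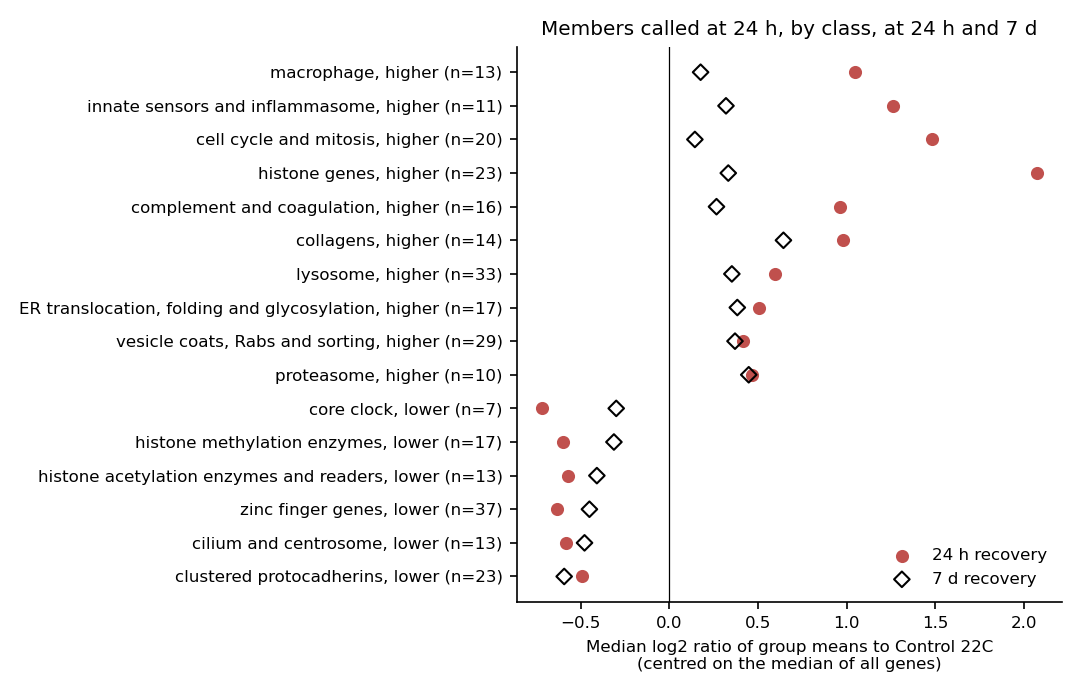
Median log2 ratio of group means to Control 22C, centred on the median of all genes, for the members of 16 classes called at 24 h of recovery, at 24 h (red points) and at 7 d (open diamonds). Macrophage, innate, cell cycle and histone genes lie between 0.14 and 0.33 at 7 d, and the points of proteasome genes nearly coincide (0.47 and 0.45).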

How the data were processed

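Interscapular brown fat RNA was depleted of ribosomal RNA and made into libraries with a TruSeq RNA kit, per the labels' protocols, and that kit does not mark strand. STAR, featureCounts and edgeR are named with the mouse build mm9, per the submitters' processing notes, with versions not given in the sources used here. For each gene the authors' deposited table has group means in RPKM, the mean log2 CPM, a log2 fold change, and the p-value and adjusted p-value of edgeR. The adjustment ran over about 13414 genes, and the table lists the 12830 whose mean reached 0.5 RPKM in a group. Since the tables used hold group means only, the model planned on library values could not be fitted, and the deposited test is the main result.

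From these values, class counts, medians, length bins and overlaps were computed in Python 3.11.15 with pandas 2.3.3. The approximate standard error is the size of the log2 fold change over the normal score of its p. Classes were name lists of 75 gene groups, and 70 name matches with another function were taken out. The members and lists were chosen with earlier results of these data known, so no list gets a test of its own. Genes were named by rule: Ucp1 and Hdac3, the 15 largest called changes per direction, the 3 smallest p per direction, up to 6 called members per class and direction by p, and markers; other names are said to be chosen after their values were seen. Gene types and promoters came from RefSeq on GRCm38.p6, another build than the authors' mm9, so they were joined by symbol and 12788 symbols matched. Of 5 deposited tables, 3 were read. Alternatives were other thresholds, filters, pseudocounts and scalings.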

Additional observations from a re-analysis of the deposited data

How the results depend on the processing

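Counts of calls moved with the threshold, and no class median recomputed with another filter, pseudocount or scaling changed sign. Over all genes, 1094 were higher and 617 lower at an adjusted p under 0.01, 484 and 217 among calls of at least 2-fold, and 830 and 457 by the authors' own status, an alternative chosen after seeing the data. They were 2049 and 1496 at an adjusted p under 0.10, 1696 and 1125 when p was adjusted over the listed genes only, and 1547 and 1039 where the mean of both groups was 1 RPKM or more. At an adjusted p under 0.01, zinc finger genes had 20 falls, histone genes 17 rises, acetylation enzymes and readers 0 rises, complement genes 8 rises and 1 fall, innate sensors 8 rises and 0 falls, collagens 0 falls, cilium genes 3 falls, proteasome genes 6 rises and lysosomal genes 1 fall. At that mean, innate sensors had 9 rises and 1 fall, collagens 0 falls and cell cycle genes 17 rises. Over all genes, 8.53% were higher and 4.81% lower at an adjusted p under 0.01. The filter on the mean did not lower the share of rises over all genes, 13.8% with it and 13.1% without. Under that filter the median of cell cycle genes was 0.14 beside 0.74 for all listed members, and that of innate sensors 0.29 beside 0.51. From ratios of means with a pseudocount of 1 RPKM, these 2 medians were 0.40 and 0.25. The median gap of log2 ratios of group means to the deposited log2 fold changes was -0.064, and every called gene kept its direction in them.

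No paired analysis was possible because the tables hold no value per library, although the groups share replicate numbers. For the same reason the fit with a replicate block and the fits that leave out each library were not run. Depth limits genes under 1 RPKM, where a library holds few reads per gene.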
